A study of Mus musculus with 32 samples.

Results

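The endothelial identity genes are 10 genes by which the lining cells of blood vessels are commonly recognised in tissue RNA, and all 10 were found by Ensembl identifier among the 32285 genes of the deposited count table. They were followed in bulk RNA sequencing of 32 whole bladders of female C57BL/6 mice, with 1 bladder per library, to ask how vessel transcripts stood at each age and after senolytic treatment. Young (2 months, n = 6), middle-aged (10 months, n = 5) and untreated old (26 months, n = 6) bladders came from mice that were not gavaged. A further 3 groups of 26-month bladders came from mice gavaged on 3 consecutive days a month from 21 to 26 months of age, with water (water-treated old, n = 5), with vehicle (vehicle-treated old, n = 4) or with D+Q (D+Q-treated old, n = 6). The vehicle was a mixture of Phosal, polyethylene glycol and ethanol. D+Q is dasatinib (5 mg/kg/day), a tyrosine kinase inhibitor, with quercetin (50 mg/kg/day), a flavonoid, and the pair is used to kill senescent cells. All mice were of 1 sex and 1 strain, and the labels give no batch.

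Endothelial cells line every vessel and are held together at their borders, by VE-cadherin (Cdh5) in adherens junctions and by PECAM-1 (Pecam1) outside them. Their growth and stability are set by VEGF, which signals mainly through VEGFR2 (Kdr) while VEGFR1 (Flt1) binds it with little signalling, and by angiopoietins acting on the receptor TIE2 (Tek) with its partner TIE1 (Tie1). Quiescent endothelium stores von Willebrand factor (Vwf) for clotting and makes nitric oxide through Nos3 to relax the muscle of the vessel wall.

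Each of the 10 genes was counted in each bladder, from 133 to 506 counts for Nos3 up to 1203 to 6799 counts for Vwf, out of 15088372 to 52650259 counts per bladder (median 34074787). Levels are given as TMM CPM (counts scaled to the library size with TMM factors) for a gene across bladders and TPM (also divided by exon length) wherever genes are set against each other. The tissue label was borne out by uroplakin and other urothelial markers (6 genes summing to 3513 to 4714 CPM in each bladder) and by smooth muscle markers (5 genes, 21270 to 30930 CPM). Immunoglobulin genes took 0.00446 to 0.0706% of the counts in young and middle-aged bladders and 0.0264 to 2.81% at 26 months.

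Compared per length, Pecam1 was the most abundant of the 10, with a median of 47.0 TPM over the 32 bladders, followed by Cdh5 (38.2 TPM) and Tie1 (29.2 TPM). Each of these exceeded the next in the order in 32 of 32 bladders. Tek and Vwf shared a median of 22.3 TPM, and Tek was above Vwf in 14 of 32 bladders, so this pair was not ordered. Flt1 (13.7 TPM) and Kdr (13.3 TPM) were also interleaved, with Flt1 higher in 18 of 32 bladders, as were Sox17 (11.4 TPM) and Emcn (10.8 TPM), with Sox17 higher in 18 of 32. Nos3 was the lowest (7.43 TPM) and lay below Emcn in 32 of 32 bladders. The summed level of the 10 genes was 251 ± 9.05 TPM (SD, n = 6) in young, 228 ± 6.45 TPM (SD, n = 5) in middle-aged and 207 ± 14.4 TPM (SD, n = 6) in untreated old bladders.

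Across the adult span the endothelial genes did not move as 1 block. In untreated old against young bladders, 6 of the 10 were lower (Cdh5, Nos3, Pecam1, Tek, Kdr and Tie1), 2 were higher (Vwf and Flt1), and Emcn and Sox17 did not pass the test (edgeR quasi-likelihood test, Benjamini-Hochberg adjusted p under 0.05 over 16873 genes). Of all genes tested in this comparison 25.1% passed, 12.4% lower and 12.6% higher. Their median change was -0.25 on the log2 scale, against -0.00 for all genes tested, and single genes ran from -0.47 for Cdh5 to 0.35 for Vwf. In these 2 groups the bladders of 6 of the 10 genes did not overlap, against 12.7% of all genes. In bulk RNA, fewer endothelial cells and less of a transcript per endothelial cell cannot be told apart.

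**Figure D1:**
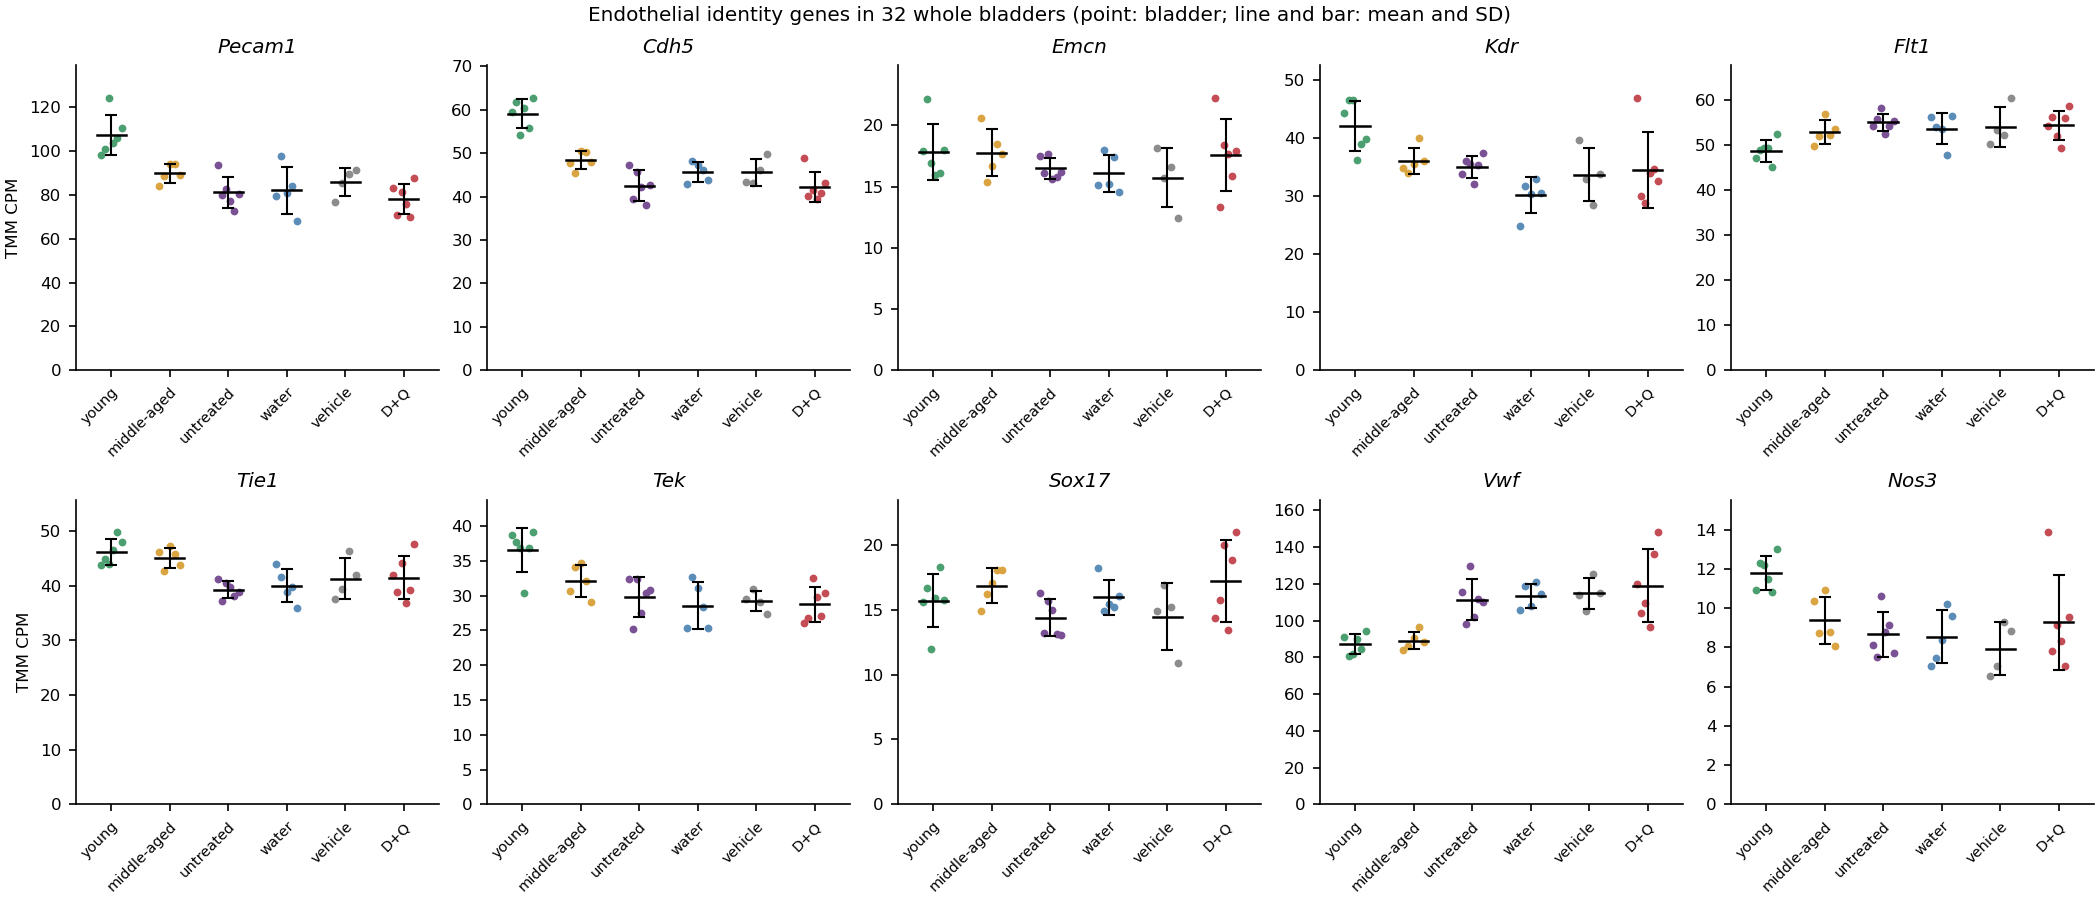
TMM CPM of the 10 endothelial identity genes (vertical axes, starting at 0) in each of 32 bladders by group (horizontal axes). Points are bladders, and the black line and bar are the group mean and SD. Pecam1 and Cdh5 of all 21 bladders at 26 months lie below the young bladders, and Vwf of all 21 lies above them.

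The VEGF receptor Kdr (ENSMUSG00000062960, chromosome 5 of mm10, 75932827 to 75978458, minus strand) ran from 36.3 to 46.6 TMM CPM in young bladders, with a median of 42.0. In the 5 middle-aged bladders Kdr stood at 34.0, 34.8, 35.6, 36.0 and 39.9 TMM CPM, and in untreated old bladders it ran from 32.1 to 37.3 with a median of 35.4. The 3 most Kdr-rich young bladders were above every middle-aged and untreated old bladder, while the other young bladders overlapped with them. Kdr was lower in untreated old than in young bladders, by a log2 fold change of -0.26 ± 0.07 (SE; edgeR adjusted p = 0.0103). In middle-aged against young bladders the difference was -0.21 ± 0.07 and missed the threshold in edgeR (adjusted p = 0.074), whereas DESeq2 called it (adjusted p = 0.042). From middle-aged to untreated old bladders it was -0.04 ± 0.05.

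The other VEGF receptor, Flt1 (ENSMUSG00000029648, chromosome 5, 147561604 to 147726011, minus strand), went the opposite way. Young bladders held 45.1 to 52.4 TMM CPM of Flt1 with a median of 49.1. The middle-aged bladders had 49.9, 52.0, 52.3, 53.5 and 56.9 TMM CPM, and the untreated old bladders 52.5 to 58.2 with a median of 54.8. The lowest untreated old bladder was just above the highest young bladder. Flt1 was higher in untreated old than in young bladders by a log2 fold change of 0.18 ± 0.04 (SE; edgeR adjusted p = 0.00659), and this was lost with limma on the deposited log2 table (0.15 ± 0.06, adjusted p = 0.0874). Neither step of age alone passed, with 0.13 ± 0.05 for middle-aged against young bladders (edgeR adjusted p = 0.0973) and 0.06 ± 0.04 for untreated old against middle-aged bladders.

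Because these receptors bind the same ligand and parted with age, their start regions are shown, each 300 bases on the gene's own strand from RefSeq (GRCm38.p6). Capitals mark matches on either strand to 3 motifs, namely the ETS motif AGGAAG (reverse CTTCCT), the GC box GGGCGG (reverse CCGCCC) and the TATA box TATAAA (reverse TTTATA), and no matches overlapped. The shorter ETS core GGAA (reverse TTCC) was not marked and occurs in both windows.
Kdr, chr5:75978406-75978705, minus strand: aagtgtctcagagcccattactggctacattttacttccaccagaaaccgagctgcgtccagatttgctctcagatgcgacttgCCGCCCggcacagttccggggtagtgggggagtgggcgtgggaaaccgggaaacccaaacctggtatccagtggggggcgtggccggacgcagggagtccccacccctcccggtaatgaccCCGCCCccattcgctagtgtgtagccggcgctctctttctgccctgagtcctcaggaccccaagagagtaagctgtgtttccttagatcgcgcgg
Flt1, chr5:147725962-147726261, minus strand: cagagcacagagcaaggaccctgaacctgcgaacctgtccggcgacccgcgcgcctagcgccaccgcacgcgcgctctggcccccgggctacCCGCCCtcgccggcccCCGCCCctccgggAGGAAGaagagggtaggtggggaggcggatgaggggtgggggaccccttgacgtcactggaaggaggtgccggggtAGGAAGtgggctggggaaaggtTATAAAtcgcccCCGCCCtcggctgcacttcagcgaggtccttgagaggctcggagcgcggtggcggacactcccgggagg
The Flt1 window held 2 AGGAAG motifs, 3 GC boxes and 1 TATA box. The Kdr window held 2 GC boxes and neither AGGAAG nor the TATA box in these exact letters. Among 32851 promoters of the same length, 35.4% held the AGGAAG motif, 35.7% the GC box and 13.6% the TATA box, so each is common. A match describes the letters and is not evidence of a bound factor. Of the 10 genes, 5 matched the promoter table by symbol, and the windows of Tie1 and Emcn held 2 AGGAAG motifs each while that of Tek held none of the 3 motifs.

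Within single bladders, the ratio of Flt1 to Kdr per length stood below 1 in every young bladder, from 0.700 to 0.910 with a median of 0.742. Its place against 1 depends on the summed exon lengths used, 13504 bases for Flt1 and 9030 for Kdr. Differences between ages do not depend on them. The ratio was 0.984 ± 0.0729 (SD, n = 5) in middle-aged bladders, which ran from 0.876 to 1.07, and 1.05 ± 0.0418 (SD, n = 6) in untreated old bladders, which ran from 0.992 to 1.10. The middle-aged range overlapped with both others, while the untreated old and young ranges did not overlap. The gavaged groups spread more widely, from 0.772 to 1.51. The ratio was chosen after the values of both receptors had been seen and is given as a description without a test. The same ratio for the TIE receptors, Tie1 to Tek, overlapped between all 3 ages, at 1.22 ± 0.140 (SD, n = 6) in young, 1.35 ± 0.101 (SD, n = 5) in middle-aged and 1.27 ± 0.101 (SD, n = 6) in untreated old bladders.

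**Figure D2:**
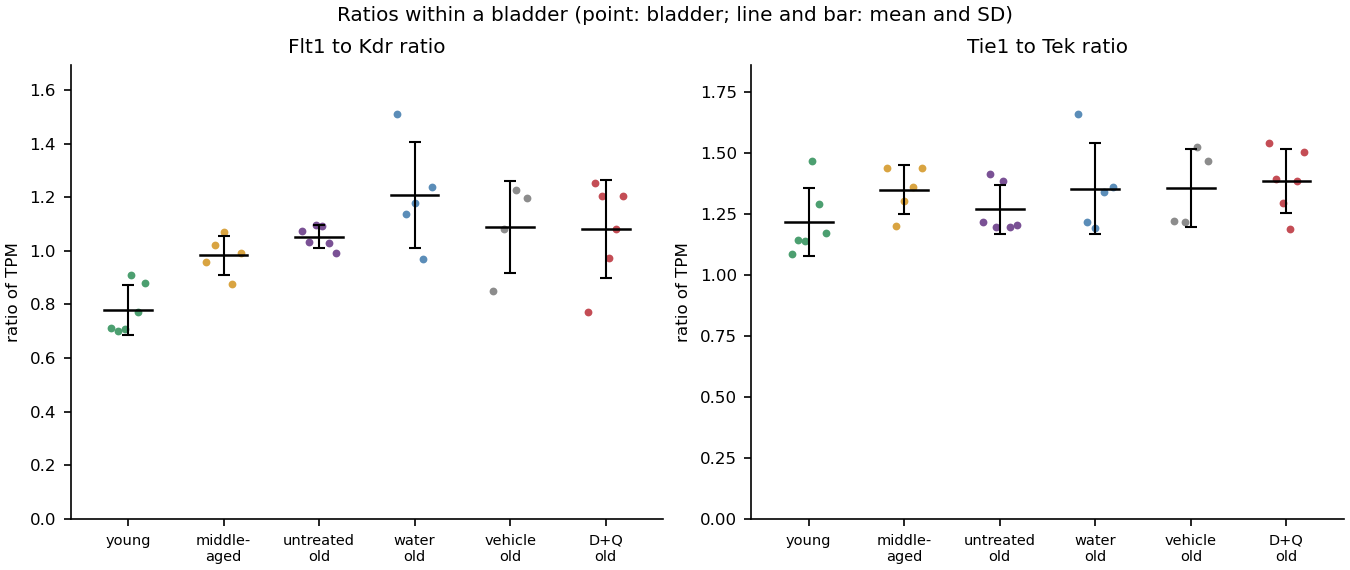
Ratio of TPM of Flt1 to Kdr (left) and of Tie1 to Tek (right) within each bladder (vertical axes, starting at 0) by group (horizontal axes). Points are bladders, and lines and bars are the mean and SD. The Flt1 to Kdr ratio of young bladders lies between 0.700 and 0.910 and that of untreated old bladders between 0.992 and 1.10.

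The receptors of the angiopoietin system, Tie1 and Tek, were both lower in untreated old than in young bladders. Tie1 (ENSMUSG00000033191, chromosome 4, 118471191 to 118490061, minus strand) ran from 43.8 to 49.8 TMM CPM in young bladders (median 45.7), was 42.7, 43.7, 45.7, 46.1 and 47.3 TMM CPM in middle age, and ran from 37.2 to 41.2 (median 39.3) in untreated old bladders. The young and middle-aged bladders were intermixed, and every untreated old bladder was below all of them. Accordingly Tie1 fell between middle-aged and untreated old bladders by 0.20 ± 0.04 on the log2 scale (SE; edgeR adjusted p = 0.00229) and did not pass between young and middle-aged bladders (log2 fold change -0.02 ± 0.05, 95% interval -0.14 to 0.09).

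Tek (ENSMUSG00000006386, chromosome 4, 94739289 to 94874976, plus strand) ran from 30.4 to 39.1 TMM CPM in young bladders with a median of 37.3. It was 29.1, 30.6, 32.1, 34.1 and 34.7 TMM CPM in middle age and 25.2 to 32.4 with a median of 30.6 in untreated old bladders. A single young bladder, replicate 4, lay at 30.4, below the next young value of 36.9, and the other 5 young bladders were above all middle-aged and untreated old bladders. Tek was lower in untreated old than in young bladders (log2 fold change -0.30 ± 0.07, edgeR adjusted p = 0.0102). Neither single step passed, with -0.18 ± 0.07 for middle-aged against young bladders (edgeR adjusted p = 0.114) and -0.11 ± 0.07 for untreated old against middle-aged bladders (edgeR adjusted p = 0.295). Without the 2 shallowest young bladders the first step passed (-0.24 ± 0.06, edgeR adjusted p = 0.0151). This setting was added after seeing the data and leaves out replicate 4, the low young bladder. Without replicate 4 alone the step also passed (-0.23 ± 0.05, edgeR adjusted p = 0.0141), so the pass cannot be put down to depth.

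The junction genes Cdh5 and Pecam1 were lower with age, with no overlap between young bladders and either later age. Cdh5 (ENSMUSG00000031871, chromosome 8, 104101625 to 104144511, plus strand), the cadherin of endothelial adherens junctions, ran from 54.3 to 62.7 TMM CPM in young bladders (median 59.9), was 45.4, 47.7, 48.1, 50.3 and 50.5 TMM CPM in middle age, and ran from 38.2 to 47.3 (median 42.4) in untreated old bladders. The young bladders stood apart from both other ages, and middle-aged and untreated old bladders overlapped. Cdh5 was lower at both steps, by a log2 fold change of -0.28 ± 0.05 for middle-aged against young bladders (SE; edgeR adjusted p = 0.00557) and -0.19 ± 0.06 for untreated old against middle-aged bladders (edgeR adjusted p = 0.0278). Over the whole span it came to -0.47 ± 0.06 (edgeR adjusted p = 7.19e-05), or 0.720 of the young level.

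Pecam1 (ENSMUSG00000020717, chromosome 11, 106654217 to 106750628, minus strand), an adhesion molecule of the cell border, ran from 98.1 to 124 TMM CPM in young bladders with a median of 105. The middle-aged bladders had 84.0, 88.5, 88.8, 93.9 and 94.3 TMM CPM, and untreated old bladders ran from 72.8 to 93.8 with a median of 80.05. As for Cdh5, no middle-aged or untreated old bladder reached the young range. Pecam1 was lower in middle-aged than in young bladders by a log2 fold change of -0.24 ± 0.06 (SE; edgeR adjusted p = 0.0235) and over the whole span by -0.40 ± 0.07 (edgeR adjusted p = 0.000604). The later step alone (-0.15 ± 0.06, edgeR adjusted p = 0.0755) did not pass in edgeR. It passed in 3 of 19 settings, 1 of them limma on the deposited log2 table (-0.20 ± 0.06, adjusted p = 0.0361). The call for middle-aged against young bladders held in 16 of 20 settings and that for the whole span in 21 of 21. Leukocytes and platelets also make Pecam1, and the part of those cells was not tested.

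Emcn (ENSMUSG00000054690, chromosome 3, 137341067 to 137432185, plus strand) encodes endomucin, a mucin of venous and capillary endothelium, and it did not pass at any step. It ran from 16.0 to 22.2 TMM CPM in young bladders (median 17.4), was 15.4, 16.7, 17.7, 18.5 and 20.6 TMM CPM in middle age, and ran from 15.7 to 17.7 (median 16.2) in untreated old bladders. All 3 ages overlapped, and over the whole span the log2 fold change was -0.12 with a 95% interval from -0.30 to 0.06, which includes falls as large as those of Kdr. Its middle-aged against young value was 0.00 ± 0.10 and changed sign with the scaling of the libraries.

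Sox17 (ENSMUSG00000025902, chromosome 1, 4490931 to 4497354, minus strand), a transcription factor of arterial endothelium, had its highest mean of the 3 ages in middle-aged bladders. It ran from 12.0 to 18.3 TMM CPM in young bladders (median 15.8), was 14.9, 16.2, 17.0, 18.05 and 18.05 TMM CPM in middle age, and ran from 13.05 to 16.3 (median 14.1) in untreated old bladders. The ages overlapped throughout. From middle-aged to untreated old bladders Sox17 fell (log2 fold change -0.23 ± 0.08, edgeR adjusted p = 0.0464), but this call lay close to the threshold and held in 8 of 19 settings. An antisense transcript whose exons overlap Sox17, Gm37587, had 48 counts over all bladders.

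Vwf (ENSMUSG00000001930, chromosome 6, 125546774 to 125686679, plus strand), the clotting factor that endothelium stores and releases, was the 1 gene of the 10 that rose between middle-aged and untreated old bladders. It ran from 80.8 to 94.3 TMM CPM in young bladders with a median of 87.2 and was 84.05, 86.3, 88.4, 90.4 and 96.5 TMM CPM in the middle-aged bladders. Untreated old bladders ran from 98.1 to 130 with a median of 111. Young and middle-aged bladders were intermixed, and every untreated old bladder was above all of them. The log2 fold change was 0.32 ± 0.06 (SE; edgeR adjusted p = 0.00319) against middle-aged bladders and 0.35 ± 0.06 (edgeR adjusted p = 0.00127) against young bladders, and between young and middle-aged bladders it was 0.04 ± 0.05. Megakaryocytes also make von Willebrand factor, and their 5 markers summed to 19.4 to 23.9 CPM in untreated old against 19.8 to 23.5 CPM in middle-aged bladders, with 0 of 4 tested higher and Itga2b lower (log2 fold change -0.35, edgeR adjusted p = 0.0146). Pf4 made up most of that sum (mean 14.9 and 13.95 CPM), and Ppbp, at 0.297 and 0.156 CPM, was not called (log2 fold change 1.01 ± 0.53). The part of megakaryocytes in the Vwf values was not tested.

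Nos3 (ENSMUSG00000028978, chromosome 5, 24364810 to 24384474, plus strand), the endothelial nitric oxide synthase, had the lowest level of the 10. It ran from 10.8 to 13.0 TMM CPM in young bladders (median 11.8), was 8.09, 8.71, 8.79, 10.3 and 10.95 TMM CPM in middle age, and ran from 7.53 to 10.6 (median 8.46) in untreated old bladders. A single middle-aged bladder reached into the young range and no untreated old bladder did. Nos3 was lower in middle-aged than in young bladders (log2 fold change -0.32 ± 0.09, edgeR adjusted p = 0.0435) and over the whole span (-0.45 ± 0.09, edgeR adjusted p = 0.00281). The first of these calls held in 9 of 20 settings and the second in 21 of 21. Exons of Nos3 overlap those of the antisense genes Atg9b (6077 counts over all bladders) and Gm15587 (295 counts), and the strand setting of the counting is not given in the sources used here. Atg9b itself was not called at any age step, with log2 fold changes of -0.01, 0.33 and 0.31.

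The steps of age can thus be set side by side. In middle-aged against young bladders 3 of the 10 genes were lower (Cdh5, Pecam1 and Nos3) and 0 higher, where 5.85% of 16754 genes tested were lower and 4.96% higher, 10.8% in all. In untreated old against middle-aged bladders 3 were lower (Cdh5, Tie1 and Sox17) and 1 higher (Vwf), where 11.0% of 17156 genes were lower and 13.0% higher, 24.0% in all. The bladders of 2 genes did not overlap at either step (Cdh5 and Pecam1, then Tie1 and Vwf), against 6.97% and 14.6% of all genes. The comparisons share groups, and whether a gene moved more at 1 step than at the other was not tested. The first count fell from 3 to 1 without young replicate 6 or middle-aged replicate 1, 2 or 5 and went to 5 without young replicate 4. The second fell from 4 to 2 without middle-aged replicate 3 or 4 or untreated old replicate 5. Calls of Cdh5 at the first step and of Tie1 and Vwf at the second held in every setting, and the count of 8 over the whole span stayed at 8 with each bladder left out in turn.

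**Figure D3:**
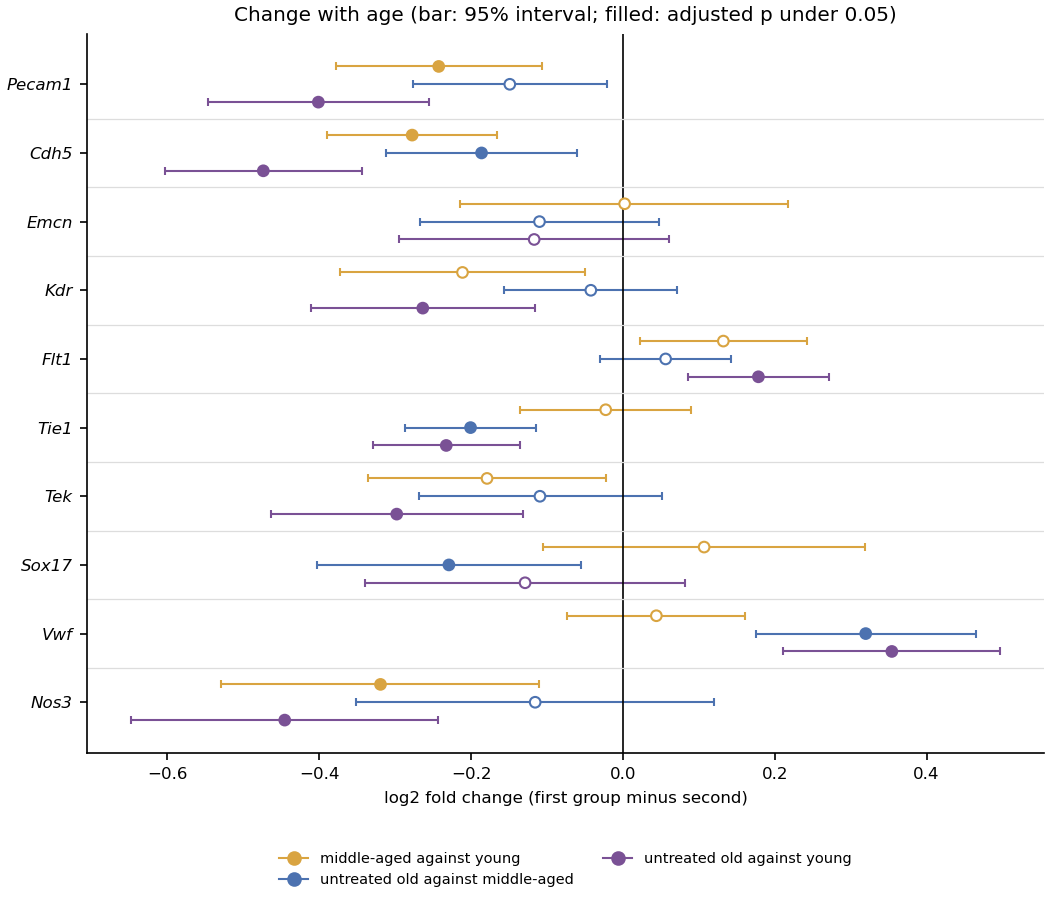
Log2 fold change (horizontal axis) of the 10 genes in 3 comparisons of age, with 95% intervals as bars. Filled circles have a Benjamini-Hochberg adjusted p under 0.05 over all genes in edgeR. Cdh5 is filled in all 3 comparisons, and Flt1 and Vwf are the genes filled to the right of 0.

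Markers of other cells of the bladder moved with age at the same time. Their counts stand beside the shares of all genes given above for each comparison of ages. In untreated old against middle-aged bladders, 4 of 4 leukocyte, 5 of 5 B cell, 4 of 4 T cell, 3 of 4 plasma cell and 4 of 5 macrophage markers were higher, and the summed leukocyte markers ran from 228 to 360 CPM in old against 104 to 121 CPM in middle-aged bladders. Ptprc, the pan-leukocyte marker, was higher by a log2 fold change of 1.70 ± 0.15 (edgeR adjusted p = 1.25e-05). In the same comparison 3 of 6 urothelial markers were lower, Upk1a (log2 fold change -0.15), Upk2 (-0.23) and Upk3a (-0.19), with summed levels of 3705 to 3986 CPM in old against 3923 to 4540 CPM in middle-aged bladders, as were 1 of 5 smooth muscle markers (Myh11, -0.24) and 1 of 5 fibroblast markers (Lum, -0.41). In middle-aged against young bladders, 3 of 5 fibroblast markers were lower, with summed levels of 7546 to 9398 against 10960 to 19040 CPM. Erythrocyte markers passed in no comparison of ages (0 of 4 called in each). Mural cell markers, which label pericytes and vascular muscle, gave 1 higher (Higd1b, edgeR adjusted p = 0.0494) and 0 lower of 7 in the later step. In middle-aged against young bladders Abcc9 was higher (log2 fold change 0.26) and Pdgfrb lower (-0.21, edgeR adjusted p = 0.0367). Over the whole span Abcc9 was again higher (0.20) and Pdgfrb lower (-0.34, edgeR adjusted p = 0.000335). The part of these shifts in the values of the endothelial genes was not tested. With immunoglobulin genes left out of the library sizes, the same endothelial genes were called in each comparison of ages. The counts were 3 for middle-aged against young, 4 for untreated old against middle-aged and 8 for untreated old against young bladders.

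All 21 bladders at 26 months, gavaged or not, were then set against the range of the young bladders. Cdh5 and Pecam1 were below that range in 21 of 21 bladders, and Vwf was above it in 21 of 21 and also above every middle-aged bladder. Among all 18093 genes kept over the 6 groups, 4.21% had no overlap between these bladders and the young ones. Nos3 was below the young range in 20 of 21 bladders, Kdr in 18, Tie1 in 17 and Tek in 14, while Flt1 was above it in 16. Emcn was below it in 9 of 21 and above it in 1, and Sox17 was above it in 3 and below it in 1. The 6 untreated old bladders belong to both this description and the tests of age.

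Gavage and D+Q left no called difference among the endothelial genes at 26 months. Against untreated old bladders, which the 3 gavaged groups share as controls, 0 of the 10 genes passed in water-treated bladders (0.487% of all genes were higher and 0.516% lower), 0 in vehicle-treated bladders (0.00% of all genes passed) and 0 in D+Q-treated bladders (0.00%) in edgeR, and DESeq2 also called 0 in each. Likewise 0 of 10 passed in D+Q-treated against vehicle-treated bladders (0.00%) and in vehicle-treated against water-treated bladders (0.00%), again with both tools. At an unadjusted p under 0.05 there was 1 gene in water-treated against untreated bladders (Kdr), 1 in D+Q-treated against untreated bladders (Sox17) and 0 in the other 3 comparisons, where 16.0%, 12.9%, 8.39%, 4.18% and 1.86% of all genes lay under that limit in water-treated, D+Q-treated and vehicle-treated against untreated bladders, in D+Q-treated against vehicle-treated and in vehicle-treated against water-treated bladders. A miss of the threshold does not show that the groups were alike, and the intervals give the sizes left possible.

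Kdr had its lowest group mean in water-treated bladders, at 24.9, 30.4, 30.5, 31.8 and 33.0 TMM CPM, against 32.1 to 37.3 (median 35.4) in untreated old bladders. Of the 5 water-treated bladders, 1 reached into the untreated range. The log2 fold change was -0.21 ± 0.07 (95% interval -0.37 to -0.06) with an edgeR adjusted p of 0.155. The vehicle-treated bladders had 28.4, 32.9, 33.8 and 39.6 TMM CPM, and vehicle-treated against water-treated bladders differed by 0.16 (95% interval -0.09 to 0.40). D+Q-treated bladders ran from 28.9 to 46.9 TMM CPM with a median of 33.3, and against untreated bladders Kdr differed by -0.02 (95% interval -0.24 to 0.20).

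Sox17 in D+Q-treated bladders ran from 13.4 to 20.95 TMM CPM with a median of 17.3, and 3 of the 6 bladders were above every untreated old bladder. Its log2 fold change against untreated old bladders was 0.26 ± 0.11 (95% interval 0.01 to 0.51, edgeR adjusted p = 0.365). The vehicle-treated bladders had 10.85, 14.9, 15.2 and 16.9 TMM CPM of Sox17, and D+Q against vehicle gave 0.24 with a 95% interval from -0.10 to 0.59. Water-treated bladders had 14.9, 15.2, 15.4, 16.0 and 18.2 TMM CPM.

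The 3 genes that separated all 26-month bladders from young ones were next compared between treatments. Vwf was 106, 108, 114, 119 and 121 TMM CPM in water-treated bladders and 105, 114, 115 and 126 in vehicle-treated bladders, and it ran from 96.6 to 148 (median 115) in D+Q-treated bladders. Against untreated old bladders its D+Q difference was 0.10 (95% interval -0.12 to 0.32). Cdh5 stood at 42.9, 43.7, 46.2, 47.3 and 48.2 TMM CPM in water-treated bladders and 43.1, 43.3, 46.0 and 49.9 in vehicle-treated bladders, and ran from 39.5 to 48.9 (median 41.2) in D+Q-treated bladders, a difference from untreated bladders of -0.01 (95% interval -0.15 to 0.13). For Pecam1 the D+Q difference was -0.06 (95% interval -0.20 to 0.09) against untreated and -0.14 (95% interval -0.31 to 0.03) against vehicle-treated bladders. For Cdh5 and Pecam1 the intervals of D+Q against untreated bladders did not reach the size of their whole-span changes, -0.47 and -0.40. Those changes use the same untreated old bladders. The D+Q-treated bladders were also among those by which these genes were picked. A gene returned to young levels by D+Q could not have been picked, so no conclusion on reversal is drawn. Nos3 was the least sharply measured of the 10, with D+Q against vehicle at 0.23 and a 95% interval from -0.20 to 0.66.

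**Figure D4:**
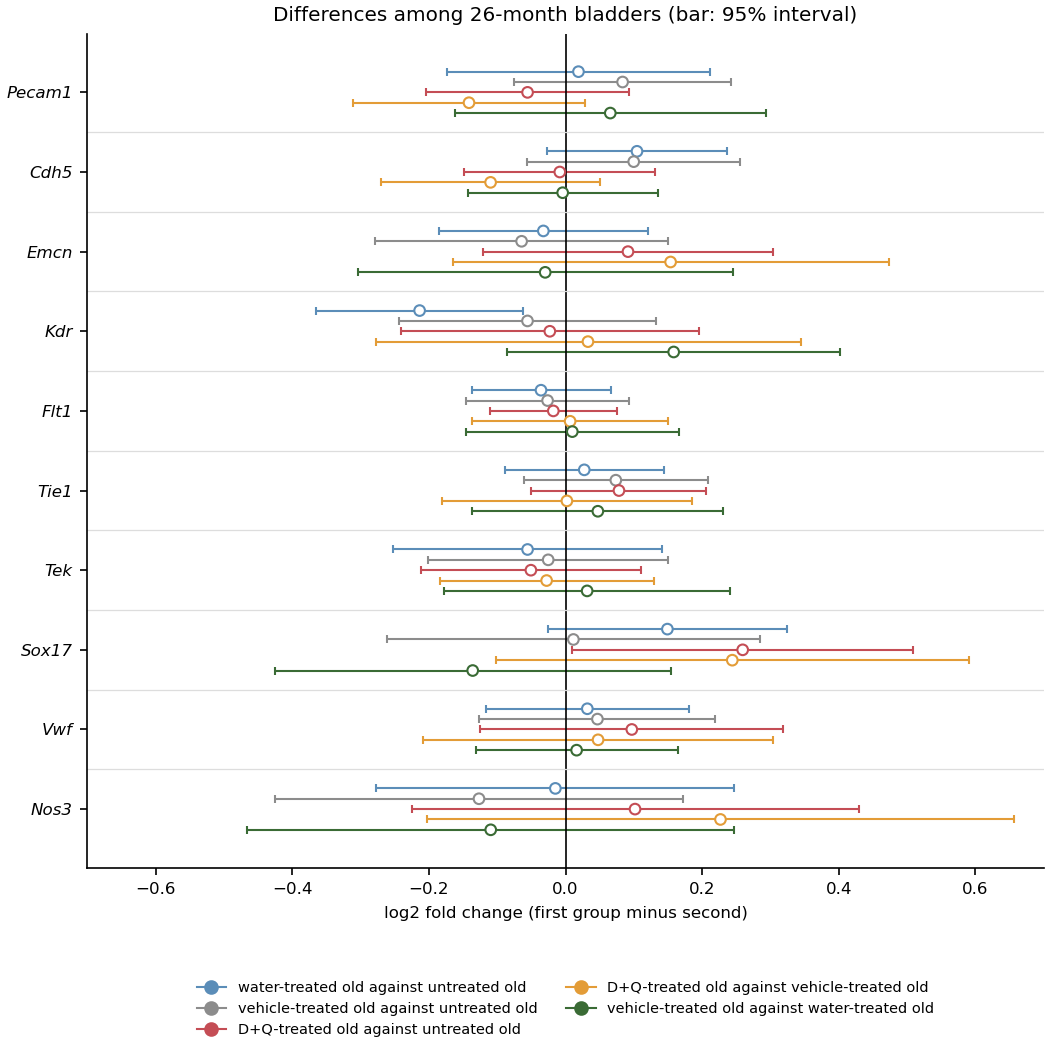
Log2 fold change (horizontal axis) of the 10 genes in 5 comparisons among 26-month bladders, with 95% intervals as bars. All circles are open because 0 of 10 genes had an adjusted p under 0.05 in any of them, and the differences run from -0.21 (Kdr, water-treated against untreated) to 0.26 (Sox17, D+Q-treated against untreated).

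The wider vascular programme was read from 93 companion genes in 10 sublists, of which 92 had enough counts to be tested with age. In middle-aged against young bladders 3 were higher and 10 lower, with a median log2 fold change of -0.09 against 0.00 for all genes. Among all genes tested at this step 4.96% were higher and 5.85% lower. In untreated old against middle-aged bladders 17 were higher and 12 lower (median -0.02), beside 13.0% and 11.0% of all genes. Over the whole span 11 were higher and 24 lower of 92 (median -0.10), beside 12.6% and 12.4% of all genes. The sublist counts below come from the same comparisons and stand beside the same shares.

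Companions of the VEGF receptors gave 0 called of 8 over the whole span. In the later step Vegfd was higher (log2 fold change 0.32), and Vegfb (-0.28) and Vegfc (-0.24), the main lymphatic growth factor, were lower. Among 5 angiopoietins and TIE regulators, Angpt2, the angiopoietin that antagonises TIE2 in many settings, ran from 14.6 to 17.5 TMM CPM in middle-aged bladders and from 9.27 to 13.8 in untreated old bladders. These ranges did not overlap, and Angpt2 fell at this step by 0.44 ± 0.11 on the log2 scale (edgeR adjusted p = 0.0133). Angpt1, the activating ligand, was higher over the whole span (0.38 ± 0.12, edgeR adjusted p = 0.0281).

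Of 16 junction and surface companions, 6 were lower over the whole span (Cldn5, Podxl, Cd34, Clec14a, Cd93 and Ecscr) and 1 was higher (Esm1). Cldn5, the main claudin of endothelial tight junctions, ran from 20.6 to 25.8 TMM CPM in middle-aged and from 15.8 to 20.4 in untreated old bladders and was lower there by a log2 fold change of -0.46 ± 0.08 (edgeR adjusted p = 0.000953). Esm1, a secreted proteoglycan of endothelial tip cells, was higher at both steps. It ran from 0.417 to 1.54 TMM CPM in young, from 2.79 to 4.37 in middle-aged and from 4.51 to 8.21 in untreated old bladders, with no overlap between the ages, and the log2 fold changes were 1.76 ± 0.26 (edgeR adjusted p = 0.00232) and 0.78 ± 0.17 (edgeR adjusted p = 0.00472).

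Among 15 endothelial transcription factors, 3 were higher and 1 lower in untreated old against middle-aged bladders. Ets1 was higher by 0.74 ± 0.07 (edgeR adjusted p = 2.28e-05), with Hhex at 0.50 and Fli1 at 0.47 also higher and Gata2 lower at -0.24. Ets1 and Fli1 are also made by lymphocytes, whose markers rose in the same comparison, and the part of those cells was not tested. Of 11 Notch and arterial genes 2 were lower at this step (Efnb2 and Sema3g) and 0 higher.

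Among genes of venous and inflamed endothelium, 3 of 6 were higher and 0 lower in the later step. Vcam1, an adhesion molecule for leukocytes, ran from 67.3 to 83.8 TMM CPM in middle-aged and from 103 to 143 in untreated old bladders, and was higher by 0.72 ± 0.08 (edgeR adjusted p = 7.1e-05), with Icam1 at 0.61 and Ackr1 at 0.34. Of 7 capillary genes, Rgcc (0.73 ± 0.19) and Cd36 (0.33) were higher and Aplnr, the apelin receptor, was lower (log2 fold change -1.17 ± 0.14, edgeR adjusted p = 9.26e-05). Aplnr averaged 10.7 TMM CPM in middle-aged and 4.77 in untreated old bladders. Leukocyte and macrophage markers rose in the same comparison, and the part of cells other than endothelium in these values was not tested.

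Coagulation and vessel tone companions sat beside Vwf and Nos3. Among the coagulation genes, Plat (tissue plasminogen activator, log2 fold change 0.44) and Tfpi, an inhibitor of the tissue factor pathway (0.13), were higher in the later step, and 0 were lower. Of 11 genes of nitric oxide and endothelin signalling, 6 were lower and 1 higher over the whole span. The 6 were Cavin1 (-0.42), both subunits of the nitric oxide receptor, Gucy1a1 (-0.52) and Gucy1b1 (-0.23), the enzymes Ddah1 (-0.58) and Ddah2 (-0.51), which clear an inhibitor of nitric oxide synthases, and Ece1 (-0.19). Gucy1a1 is also made by smooth muscle and fell in the later step by 0.30 ± 0.06 (edgeR adjusted p = 0.00283), where Myh11 of smooth muscle was also lower. Ddah1 was lower in middle-aged than in young bladders (-1.08 ± 0.22, edgeR adjusted p = 0.0114) and higher in the later step (0.52 ± 0.14, edgeR adjusted p = 0.0208). Ddah2 was lower in middle-aged than in young bladders (-0.40 ± 0.08, edgeR adjusted p = 0.00946) and did not pass in the later step (-0.10 ± 0.07).

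The co-receptor endoglin (Eng) and the kinase receptor Acvrl1, which transmit BMP9 signals in endothelium, were both lower in middle-aged than in young bladders, by log2 fold changes of -0.36 ± 0.07 (edgeR adjusted p = 0.00661) and -0.41 ± 0.08 (edgeR adjusted p = 0.0107). Their means in untreated old bladders, 87.9 and 85.6 TMM CPM, lay above the middle-aged means of 79.3 and 74.3, and of the 7 genes of this sublist 0 passed in the later step and 4 were lower over the whole span.

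**Figure D5:**
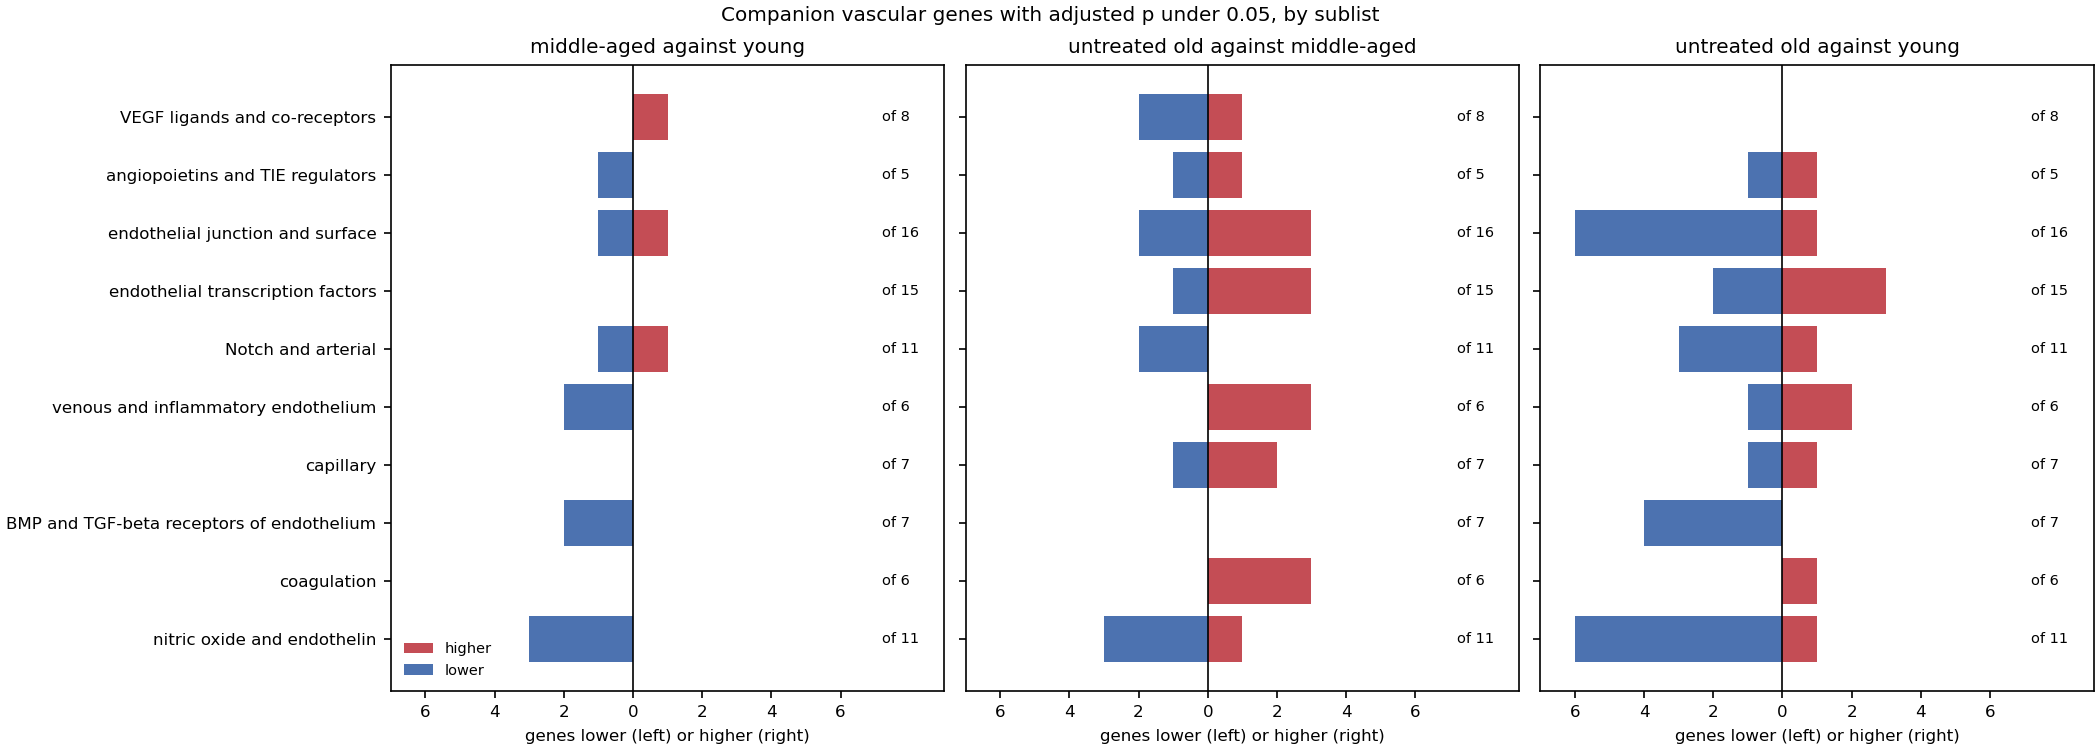
Number of companion vascular genes with an adjusted p under 0.05 (horizontal axes, lower to the left and higher to the right of 0) in 10 sublists for 3 comparisons of age, with the number tested at the right. Junction and surface genes show 6 lower and 1 higher, and nitric oxide and endothelin genes 6 lower and 1 higher, in untreated old against young bladders.

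After gavage, 2 of 93 companions passed in water-treated against untreated old bladders, both lower (Bmpr2 and Tfpi). Among all genes 0.516% were lower and 0.487% higher there. In the other 4 comparisons 0 companions passed in edgeR, beside 0.00% of all genes. An unadjusted p under 0.05 was met by 20 of 93 in water-treated against untreated bladders (16.0% of all genes). Against untreated bladders it was met by 8 of 93 in vehicle-treated (8.39%) and 13 of 93 in D+Q-treated bladders (12.9%). In D+Q-treated against vehicle-treated bladders it was 2 of 93 (4.18%), and in vehicle-treated against water-treated bladders 2 of 92 (1.86%).

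Within groups, the 10 genes varied together only loosely. After each group's mean was removed, 38 of the 45 pairs of genes had a positive correlation over the 32 bladders, with a median Pearson r of 0.208. Pecam1 with Tie1 (r = 0.563), Cdh5 with Nos3 (r = 0.537) and Emcn with Kdr (r = 0.514) were among the closest pairs, and Kdr with Sox17 (r = -0.395) and Kdr with Tie1 (r = -0.393) among the most opposed. The genes of a pair share libraries and depth, so these values only describe the bladders. D+Q-treated replicate 1 was the highest of its group for Cdh5, Nos3, Emcn and Kdr, and its part in those pairs was not tested. Outside the 10, 18083 genes were searched for levels that followed the mean of the 10 over the 32 bladders and 6 groups, and those among the closest were Clec3b (r = 0.810), Tnnt1 (r = 0.799), Cmtm3 (r = 0.793) and Ntrk3 (r = 0.754).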

How the data were processed

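The authors prepared total RNA libraries (TruSeq Stranded), aligned reads to mm10 with STAR 2.7.3 and deposited raw counts per gene made with featureCounts of Subread, without normalization. Each gene's exon length in bases, the other unit the authors deposited, stands beside the counts. The authors also deposited a table of log2 values, found here to be log2 of the count plus 1 per base scaled to a sum of 100000 per bladder. TPM was computed from the counts and exon lengths. Of 32285 identifiers 32158 had a symbol.

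Groups followed the labels. Each of 8 comparisons was fitted on its 2 groups with edgeR 4.0.16 in R 4.3.3 (filterByExpr, TMM, quasi-likelihood test, Benjamini-Hochberg adjustment over all genes tested, threshold 0.05). Log2 fold changes are given ± SE. Alternatives were DESeq2 1.42.0, RLE factors, library sizes without immunoglobulin genes, no filter on low counts, all 6 groups in a single fit, the replicate number as a block, limma 3.58.1 with trend on the deposited log2 table and each bladder left out in turn. Leaving out the 2 shallowest young bladders was added after seeing the data. The code was tested on simulated data.

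The 10 genes, companion lists and marker lists were chosen with earlier results of these data known. Companions were named where they passed, their groups did not overlap and they were among the 4 largest changes in a direction, in middle-aged against young and in untreated old against middle-aged bladders. Others are named as members of a sublist's count. Likeness was the Pearson correlation of log2 TMM CPM with the mean standardised level of the 10 genes. Library totals were 15088372 to 52650259 counts, TMM factors 0.942 to 1.04, and 0 pairs of bladders in a group held identical counts. Some genes that these rules would name are not reported here.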

Additional observations from a re-analysis of the deposited data

Results flagged for a closer look

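In 72 sets of bladders (a gene or ratio within a group of 4 to 6 bladders), 4 held a bladder that stood apart from the rest, where about 1 set in 20 would by chance. Emcn was highest in young replicate 2, at 22.18 TMM CPM with the next young bladder at 18.01. Tek was lowest in young replicate 4, at 30.39 TMM CPM with the next at 36.89. D+Q-treated replicate 1 was highest for Kdr (46.9 TMM CPM, next 34.63) and for Nos3 (13.87 TMM CPM, next 9.54), and it was also the highest of its group for Cdh5 and Emcn and the lowest for Tek. Erythrocyte markers summed to 217 to 3293 CPM in D+Q-treated against 68.4 to 553 CPM in untreated old bladders, with 0 of 4 called, and their part in these values was not tested.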

How the results depend on the processing

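In old against young bladders the count of endothelial identity genes was 8 with each bladder left out in turn and under DESeq2, RLE factors and the replicate block, and 7 with limma. In middle-aged against young bladders it was 3, with a range of 1 to 5 when each bladder was left out. It was 5 without the 2 shallowest young bladders (Kdr and Tek were added). The same 5 were called without young replicate 4 alone, and 2 without young replicate 3, the other shallow bladder. In untreated old against middle-aged bladders it was 4, with a range of 2 to 5. In the gavage comparisons the count was 0 in each setting run. Nos3 in the first step lost its call without the filter on low counts (adjusted p = 0.0594), in a single fit of 6 groups (0.0959) and with the replicate block (0.107), as did Sox17 in the second (0.0628, 0.194 and 0.121). Emcn in middle-aged against young bladders changed sign under DESeq2 (-0.0056), RLE factors (-0.0060), a single fit (-0.0081) and without shallow young bladders (-0.0547), and ran from -0.0563 to 0.0706 with each bladder left out. Tie1 there ran from -0.0458 to 0.0032. The cause of these changes was not tested. Bladders with the same number in the sample titles did not deviate together (correlations of deviations from -0.300 to 0.137, over 0.1 for at most 1 pair in a comparison). The main fits took no pairs. The count columns number some middle-aged, vehicle-treated and water-treated bladders otherwise, and pairing by those numbers was not tested. With the title number as replicate block the counts were 2, 3 and 8 for the 3 age comparisons and 0 for the others. Nos3, with 133 to 506 counts per bladder, was the most limited by depth.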

Other observations

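Lymphatic endothelium, which shares Pecam1 and other genes with blood vessels, was read from 7 markers, 6 of them tested. In untreated old against middle-aged bladders 3 were higher and 0 lower, beside 13.0% and 11.0% of all genes. The 3 were Lyve1 (log2 fold change 0.70 ± 0.09, edgeR adjusted p = 0.000159), Mmrn1 (0.45 ± 0.07, edgeR adjusted p = 0.000734) and Pdpn (0.39 ± 0.12, edgeR adjusted p = 0.0298). Prox1, the transcription factor that defines lymphatic endothelium, did not pass (0.02 ± 0.18), nor did Flt4, the lymphatic VEGF receptor (0.05 ± 0.06). Lyve1 is also carried by macrophages and Pdpn by fibroblasts, and the part of those cells was not tested. The 7 markers summed to 165 to 212 CPM in untreated old and 136 to 154 CPM in middle-aged bladders, ranges that did not overlap, while young bladders ran from 152 to 209 CPM. In middle-aged against young bladders Lyve1 (-0.50) and Pdpn (-0.66) were lower and Reln (0.41) was higher, beside 5.85% and 4.96% of all genes. Over the whole span Reln (0.61) and Mmrn1 (0.35) were higher and 0 were lower, beside 12.6% and 12.4% of all genes.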
